A study of Homo sapiens with 2 samples.

Results

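Semaphorins, plexins, neuropilins, ephrins and EPH receptors were examined in FaDu cells, an established line from a squamous cell carcinoma of the human hypopharynx. Members were all genes of the expression table whose symbols name a semaphorin of classes 3 to 7, a plexin, NRP1 or NRP2, an EPHA or EPHB receptor, or an ephrin, which gave 53 of 16951 genes. Of these, 28 encode ligands (8 ephrins and 20 semaphorins) and 25 encode receptors (14 EPH receptors, 9 plexins and 2 neuropilins). The study sequenced total RNA at day 2 from FaDu cells with an shRNA against KIF2C and from FaDu cells with a control shRNA, 1 library each, to ask how this mitotic kinesin bears on proliferation and motility. The table calls its libraries D1 and C1, and no label ties a code to a condition. KIF2C itself had 3036 reads in library D1 and 783 in library C1, which goes against reading D as knock-down and C as control. All differences are therefore library D1 over library C1, and which of them carried the KIF2C shRNA is not established. With 1 library per condition there is no test between conditions, and every interval given covers counting error only.

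These families are contact and short-range cues first described in axon guidance. Ephrin-A ligands are held in the membrane by a lipid anchor and bind mainly EPHA receptors, whereas ephrin-B ligands cross the membrane and bind mainly EPHB receptors, and both sides of the pair can signal. Class 3 semaphorins are secreted and mostly bind a neuropilin, which has little signalling of its own and works with an A-type plexin. Most other semaphorins are membrane proteins that bind plexins directly. In epithelia and carcinomas the same pairs act on cell sorting, cell repulsion, attachment and migration, largely through small GTPases.

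The totals were 18560024 estimated counts in library D1 and 18189742 in library C1, and the members held 0.156% and 0.180% of them. Counts were scaled between libraries by TMM, a trimmed mean of gene ratios, to CPM, counts per 1000000 of the scaled library, and 44 members reached 1 CPM in at least 1 library, which corresponds to 17.8 reads in library D1 and 19.0 in library C1. The 9 members below that level were EFNA2, EPHA3, EPHA5, EPHA8, EPHB1, SEMA3G, SEMA5A, SEMA5B and PLXNA4, with 0 to 10 reads in library D1 and 0 to 14 in library C1. A count of 0 allows up to 3 counts, so these genes are not shown to be silent, and no ratio is given for them. Among markers of squamous epithelium, KRT5, KRT14, TP63, CDH1 and EPCAM were all detected, with a summed level of 3054 TPM in library D1 and 979 TPM in library C1. KRT5 (2061 TPM in D1 and 336 TPM in C1), KRT14 (430 and 54.9 TPM) and TP63 (112 and 46.3 TPM) were higher in library D1, while CDH1 (126 and 160.1 TPM) and EPCAM (325 and 382 TPM) were slightly lower.

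Few members differed by much, and those that did were both neuropilins, 2 semaphorins, 1 ephrin and 1 EPH receptor. In RNA from whole cultures, fewer cells that express a gene and less of its RNA per cell cannot be told apart. NRP2 and EFNB1 exceeded a 2-fold difference upward in library D1, which is 2 of 44 members beside 2.40% of the 13225 genes that passed the same filter. SEMA7A, EPHB6, NRP1 and SEMA3E exceeded it downward, which is 4 of 44 beside 4.54% of all genes. At 1.5-fold, 5 members were higher (7.95% of all genes) and 6 were lower (10.6% of all genes). This balance depends on scaling, with 2 higher and 9 lower under plain library totals and 3 higher and 11 lower by deposited TPM. The whole table moved the same way. Of all genes, 49.0% had ratios below 0 under TMM, 62.0% under plain totals and 65.0% by TPM. The 95% counting interval lay above 0 for 9 members (20.5%, against 30.9% of all genes) and below 0 for 13 (29.5%, against 27.2%). Ratios of any size below 0 were found for 25 members (56.8%, against 49.0% of all genes) and above 0 for 19 (43.2%, against 51.0%). The median log2 ratio of the members was -0.09, and that of all genes was 0.01.

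**Figure D1:**
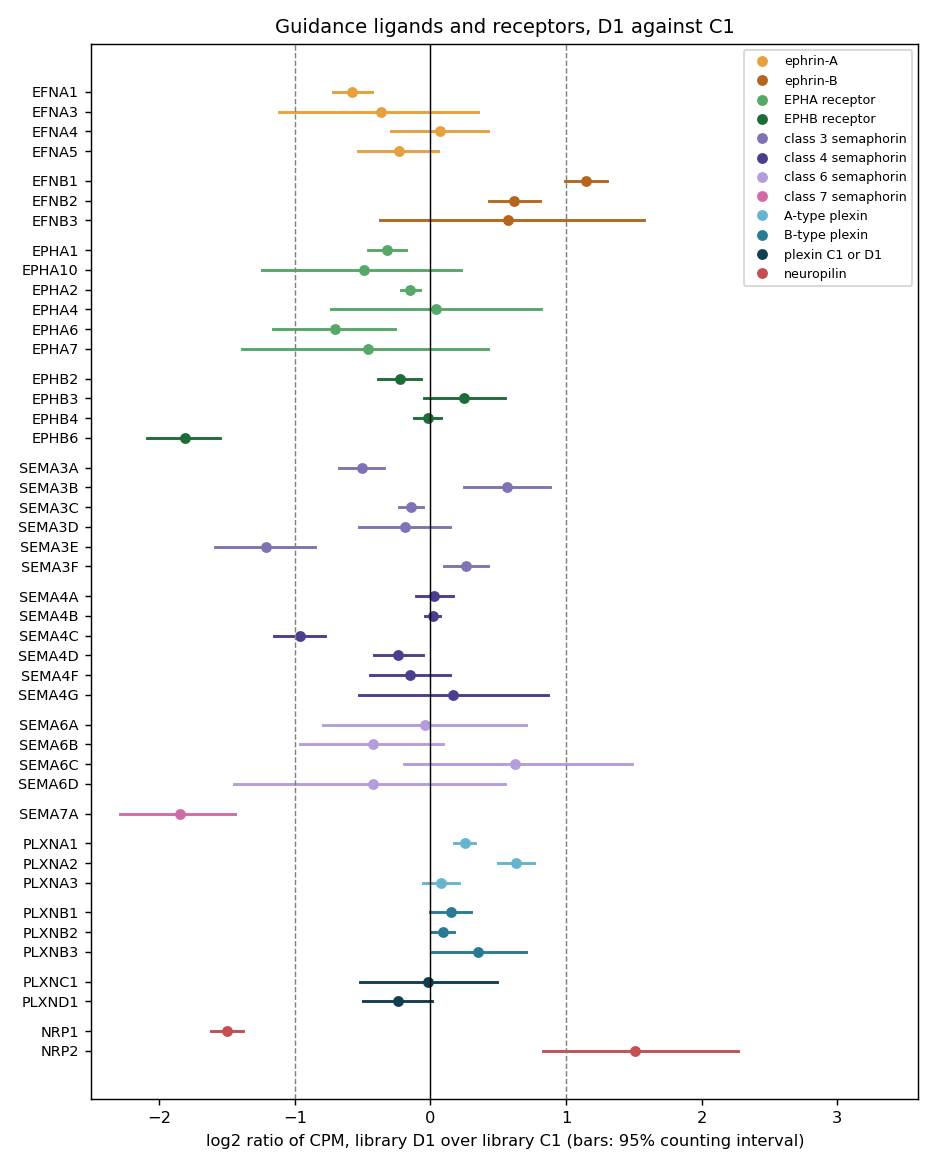
Log2 ratio of CPM, library D1 over library C1, for the 44 members past the expression filter, coloured by role; bars are 95% counting intervals and dashed lines mark a 2-fold difference. NRP2 (1.51) and EFNB1 (1.15) lie to the right of the 2-fold line, and SEMA7A (-1.85), EPHB6 (-1.81), NRP1 (-1.50) and SEMA3E (-1.21) to the left.

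**Figure D2:**
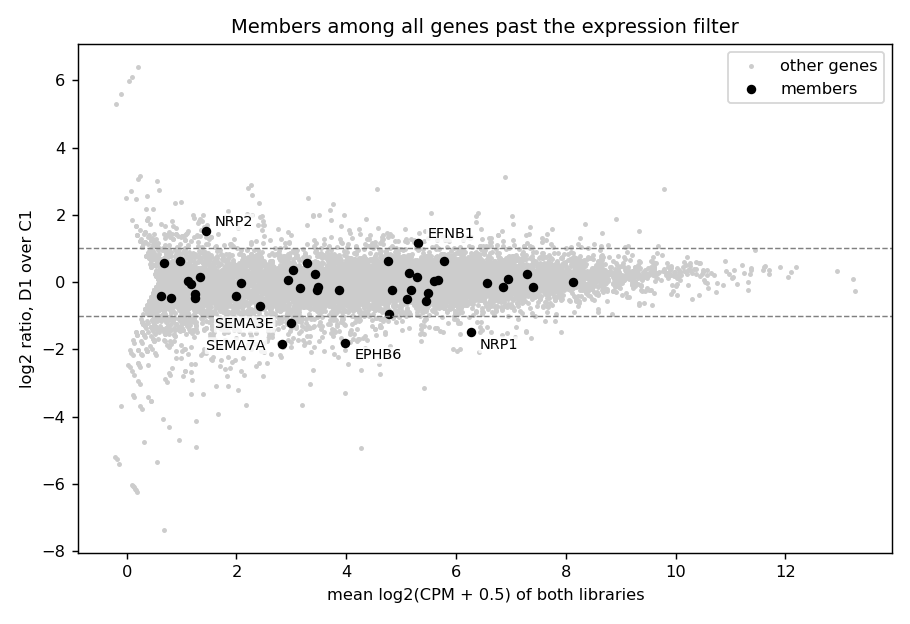
Log2 ratio, D1 over C1, against the mean log2(CPM + 0.5) of both libraries, for members (black) and the other genes past the filter (grey). The 6 labelled members lie outside the dashed 2-fold lines, and the remaining 38 lie between them.

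The genes at least 2-fold different lie on 5 chromosomes in the RefSeq annotation of GRCh38.p14. EFNB1 is at chrX:68829021-68842160, NRP2 at chr2:205682501-205798131, NRP1 at chr10:33177493-33334667, SEMA7A at chr15:74409289-74433958, EPHB6 at chr7:142855076-142871093 and SEMA3E at chr7:83363238-83649139. Neighbouring genes did not reach 2-fold as a rule. Among the 5 nearest measured genes on each side, 0 of 10 reached 2-fold around EFNB1, NRP2, NRP1, EPHB6 and SEMA3E, and 3 of 10 did around SEMA7A. The neighbours' ratios around SEMA7A ran from -1.25 to 1.25, so they went both ways.

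The start regions of 5 of these 6 genes are shown to place the members that differed most beside their promoter sequence; each runs from 250 bases before to 50 bases after an annotated RefSeq start in GRCh38.p14, on the gene's strand, and capitals mark the GC box GGGCGG on either strand. EFNB1 (chrX:68828771-68829070, plus strand) and NRP2 (chr2:205682251-205682550, plus strand) are the higher genes. SEMA7A (chr15:74433909-74434208, minus strand), EPHB6 (chr7:142862506-142862805, plus strand, a start inside the annotated gene) and SEMA3E (chr7:83649090-83649389, minus strand) are the lower ones.
EFNB1: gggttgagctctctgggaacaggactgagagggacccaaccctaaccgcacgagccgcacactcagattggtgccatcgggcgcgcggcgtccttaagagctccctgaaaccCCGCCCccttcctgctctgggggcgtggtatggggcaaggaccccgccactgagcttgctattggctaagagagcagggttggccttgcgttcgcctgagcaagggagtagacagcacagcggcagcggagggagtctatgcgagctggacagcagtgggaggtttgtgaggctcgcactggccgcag
NRP2: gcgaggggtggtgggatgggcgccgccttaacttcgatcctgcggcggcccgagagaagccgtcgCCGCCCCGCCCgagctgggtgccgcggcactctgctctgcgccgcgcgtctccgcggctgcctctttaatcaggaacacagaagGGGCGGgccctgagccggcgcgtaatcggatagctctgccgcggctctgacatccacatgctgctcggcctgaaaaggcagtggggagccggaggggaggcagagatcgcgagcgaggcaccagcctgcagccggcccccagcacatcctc
SEMA7A: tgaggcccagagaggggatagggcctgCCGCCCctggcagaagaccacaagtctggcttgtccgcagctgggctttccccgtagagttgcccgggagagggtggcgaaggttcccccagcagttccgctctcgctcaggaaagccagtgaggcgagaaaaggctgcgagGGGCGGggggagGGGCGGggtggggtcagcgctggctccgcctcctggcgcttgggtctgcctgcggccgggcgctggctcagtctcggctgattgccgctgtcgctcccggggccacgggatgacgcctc
EPHB6: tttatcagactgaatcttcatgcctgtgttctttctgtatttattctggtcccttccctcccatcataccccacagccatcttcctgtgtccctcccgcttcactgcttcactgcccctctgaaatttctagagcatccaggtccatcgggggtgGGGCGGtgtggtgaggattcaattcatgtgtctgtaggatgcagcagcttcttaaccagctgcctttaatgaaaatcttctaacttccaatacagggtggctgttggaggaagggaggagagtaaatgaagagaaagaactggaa
SEMA3E: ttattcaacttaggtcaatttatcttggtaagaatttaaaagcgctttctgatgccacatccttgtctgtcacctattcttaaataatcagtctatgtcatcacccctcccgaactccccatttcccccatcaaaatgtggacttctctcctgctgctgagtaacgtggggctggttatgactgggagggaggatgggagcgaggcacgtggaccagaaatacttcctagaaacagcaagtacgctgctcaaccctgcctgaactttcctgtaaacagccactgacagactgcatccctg

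The windows shown differ widely in CpG content. EFNB1 had 18 CpG dinucleotides and NRP2 had 33, against 23 in SEMA7A, 6 in SEMA3E and 3 in EPHB6. The median was 14 over all 27305 promoter windows of that length and 23.5 over the 38 windows of members past the filter that the RefSeq table holds. A GC box was present in 32 of the 38 member windows (84.2%) and in 44.6% of all windows; among the 5 shown, SEMA3E alone had none, and in NRP2 a pair of boxes overlap. The E-box core CAGGTG, which Snail-family repressors bind, was in 9 of 38 member windows (23.7%) and in 20.6% of all. The AP-1 site TGANTCA was in 1 member window (2.63%, against 7.76% of all) and the RBPJ site GTGGGAA in 1 (2.63% against 6.28%). All motifs were searched on both strands, and none of these last 3 was found in the windows shown. A match is a string of letters and not a measured site. The 27305 windows were not held to the expression filter that the genes of the 38 member windows passed. The CpG and motif comparisons are therefore between unlike sets.

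Among the ephrins, the ephrin-B ligands were higher and the leading ephrin-A ligand was lower in library D1. EFNB1, the X-linked ephrin-B that patterns craniofacial and epithelial tissue, had 1042 reads in library D1 and 500 in library C1, a log2 ratio of 1.15 (95% counting interval 0.99 to 1.31). Its deposited level was 35.18 TPM in library D1 and 17.61 TPM in library C1, just under 2-fold on that scale. EFNB2, the ephrin-B of arterial endothelium and a ligand of EPHB4, had 586 and 406 reads in D1 and C1, a ratio of 0.62 (0.43 to 0.81). EFNB3 was rare, with 24 reads in library D1 and 17 in library C1, and its interval of -0.37 to 1.58 spans 0. Thus all 3 ephrin-B genes had ratios above 0, beside 51.0% of all genes, with EFNB3 not resolved from 0. Only EFNB1 reached 2-fold, beside 2.40% of all genes at least 2-fold higher.

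EFNA1, a TNF-induced ephrin and a main ligand of EPHA2, had 631 reads in library D1 and 1001 in library C1, a ratio of -0.58 (-0.72 to -0.43). It remained the most abundant ephrin in both libraries, at 46.12 TPM in D1 and 76.31 TPM in C1. The other ephrin-A genes that passed the filter had intervals that span 0. EFNA4 had 130 and 132 reads in D1 and C1 (0.07), EFNA5 had 174 and 218 (-0.23), and EFNA3 had 29 and 40 (-0.37). EFNA3 and EFNA4 lie next to EFNA1 on chromosome 1. In GENCODE release 29 each shares an exon stretch with the same overlapping coding gene on the same strand (395 and 189 bases). Reads there may have been split, although the estimated counts of EFNA3 and EFNA4 were whole numbers in both libraries.

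The make-up of the ephrin family was therefore different within each library, a comparison in which the scaling between libraries cancels. Ephrin-B genes took 1652 of 2621 ephrin reads in library D1 (63.0%, exact Clopper-Pearson 95% interval 61.1 to 64.9) and 923 of 2316 in library C1 (39.9%, 37.9 to 41.9). Per length, summed ephrin-A was 64.23 TPM in library D1 and 97.29 TPM in library C1, while summed ephrin-B was 48.94 TPM in D1 and 27.66 TPM in C1. The ephrin-A level was 1.31 times the ephrin-B level in library D1 and 3.52 times in library C1. Within ephrin-B, EFNB1 made up 63.1% of reads in library D1 (60.7 to 65.4) and 54.2% in library C1 (50.9 to 57.4).

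**Figure D3:**
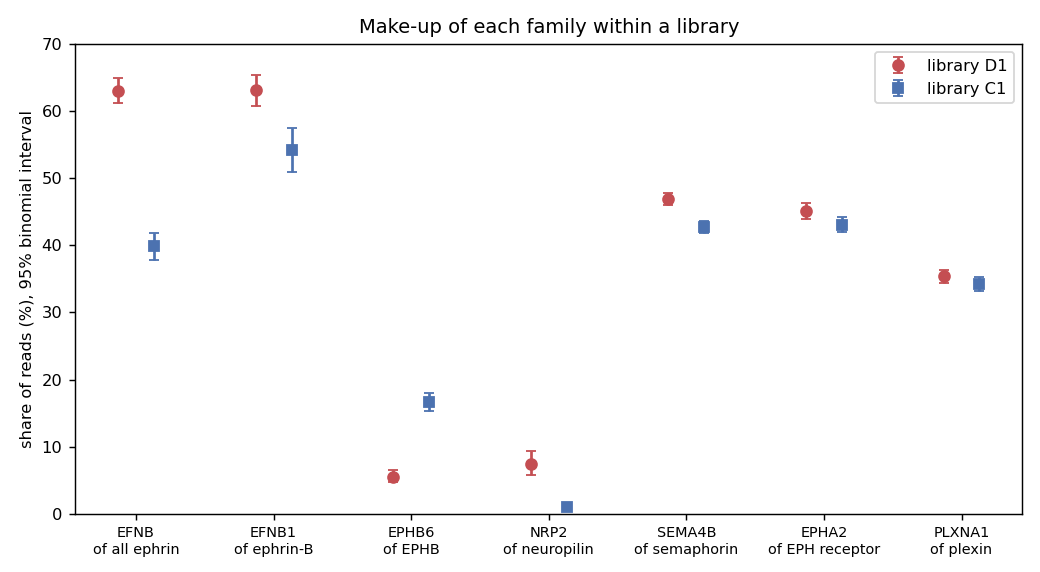
Share of reads that a gene or subfamily takes of its family, in percent, in library D1 (circles) and library C1 (squares), with exact 95% binomial intervals that cover counting error. The ephrin-B share of ephrin reads is 63.0% in D1 and 39.9% in C1, and the PLXNA1 share of plexin reads is 35.4% in D1 and 34.3% in C1.

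EPH receptors are the largest family of receptor tyrosine kinases, and 10 of the 14 in the table passed the filter. EPHB6 was the 1 of these 10 that reached 2-fold, downward in library D1, beside 4.54% of all genes. This receptor lacks kinase activity and signals through partner EPH receptors. EPHB6 had 144 reads in library D1 and 540 in library C1, a log2 ratio of -1.81 (-2.09 to -1.55), and 3.97 TPM in D1 against 15.81 TPM in C1. Its share of EPHB reads was 5.54% in library D1 (4.70 to 6.50) and 16.6% in library C1 (15.4 to 17.9). EPHB2, a receptor that positions epithelial cells in the intestine, stood 3.36 times above EPHB6 by TPM in library D1 and 1.06 times in library C1.

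The other EPHB receptors moved much less. EPHB4, the partner of EFNB2 in vessels and the leading EPHB receptor here, had 1660 and 1793 reads in D1 and C1, a ratio of -0.02 (-0.12 to 0.08). EPHB2 had 592 and 738 reads, a ratio of -0.23 (-0.39 to -0.07), and EPHB3 had 200 and 179 reads, a ratio of 0.25 (-0.05 to 0.55). EPHB4 thus kept the lead of its subfamily, with 43.69 TPM in library D1 and 49.25 TPM in library C1.

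Of 6 EPHA receptors past the filter, 5 had ratios below 0, beside 49.0% of all genes. None reached 2-fold, beside 2.40% of all genes at least 2-fold higher and 4.54% at least 2-fold lower. EPHA2, the abundant EPHA receptor of epithelial and carcinoma cells, had 2839 reads in library D1 and 3347 in library C1, a ratio of -0.15 (-0.22 to -0.07). At 80.85 TPM in D1 and 98.92 TPM in C1 it was the most abundant receptor of all these families, with 45.1% of EPH receptor reads in D1 and 43.1% in C1. EPHA1, an epithelial receptor of the same class, had 707 and 939 reads in D1 and C1, a ratio of -0.32 (-0.46 to -0.18). EPHA6 had 68 and 118 reads, a ratio of -0.70 (-1.16 to -0.26). EPHA7, EPHA10 and EPHA4 had 19 to 30 reads in library D1 and 28 to 42 in library C1, and their intervals span 0. EPHA10 also lacks kinase activity. Among the EPHA receptors past the filter, the estimated counts of EPHA2, EPHA6 and EPHA10 were not whole numbers. For EPHA6 and EPHA7 the deposited TPM gave lower ratios (-1.17 and -1.20) than the counts (-0.70 and -0.46), which places both past 2-fold by TPM; they were the only members past the filter whose TPM and count ratios differed by more than 0.3 on the log2 scale after the median difference was subtracted.

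The neuropilins showed the widest spread of any subfamily, with 1 gene on each side. NRP1, the co-receptor of class 3 semaphorins and of VEGF-A, had 812 reads in library D1 and 2442 in library C1, a log2 ratio of -1.50 (-1.61 to -1.38). NRP2, the co-receptor that binds SEMA3F and VEGF-C, had 65 reads in library D1 and 24 in library C1, a ratio of 1.51 (0.83 to 2.27). NRP1 was still far more abundant, at 18.32 TPM in D1 and 58.23 TPM in C1, against 1.09 and 0.42 TPM of NRP2. By TPM, NRP1 exceeded NRP2 16.8-fold in library D1 and 139-fold in library C1. NRP2 took 7.41% of neuropilin reads in library D1 (5.77 to 9.35) and 0.973% in library C1 (0.625 to 1.44).

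NRP1 stood at 0.301 times the summed level of the A-type plexins by TPM in library D1 and at 1.05 times in library C1. Both neuropilin genes overlap an annotated antisense gene in GENCODE release 29 (by up to 480 bases for NRP1 and 147 for NRP2), and without known strand in the counting their reads cannot be told apart. NRP1 is also a gene of endothelium, and of the endothelial markers listed CDH5 had 249 reads in library D1 and 1000 in library C1, PECAM1 had 13 and 12, and VWF had 29 and 22. The 3 together summed to 7.40 TPM in D1 and 29.20 TPM in C1, and their part in the NRP1 result was not tested. TEK was not analysed here.

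Plexins, the receptors whose intracellular GTPase-activating domain acts on Ras-family proteins, differed little in size. Of 8 past the filter, 6 had ratios above 0, beside 51.0% of all genes. None reached 2-fold, beside 2.40% of all genes at least 2-fold higher and 4.54% at least 2-fold lower. PLXNA2, a partner of neuropilins and of class 6 semaphorins, had 1202 reads in library D1 and 826 in library C1, a ratio of 0.63 (0.50 to 0.76), and was the member of this family furthest from 0. PLXNA1, the A-type plexin with the most reads, had 3045 and 2720 reads in D1 and C1, a ratio of 0.25 (0.18 to 0.33). PLXNA3 had 925 and 933 reads (0.08, interval -0.06 to 0.21).

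Among the B-type plexins, which bind class 4 semaphorins and couple to guanine nucleotide exchange factors, PLXNB2 had 2256 reads in each library, a ratio of 0.09 (0.01 to 0.17). PLXNB1, the SEMA4D receptor, had 727 and 697 reads in D1 and C1 (0.15, interval -0.0011 to 0.30), and PLXNB3 had 155 and 129 (0.35, interval 0.01 to 0.70). PLXND1, the receptor of SEMA3E, had 230 and 289 reads (-0.24, interval -0.50 to 0.02). PLXNC1, the plexin that binds SEMA7A, had 66 and 71 reads (-0.01, interval -0.52 to 0.49). The ratios of PLXNA3 and PLXNB2 turn below 0 under plain library totals and in the deposited TPM, so their signs depend on scaling. PLXNB3 shares up to 412 bases of exon with SRPK3 on the same strand, and its reads are uncertain to that extent. Its estimated counts were whole numbers in both libraries.

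**Figure D4:**
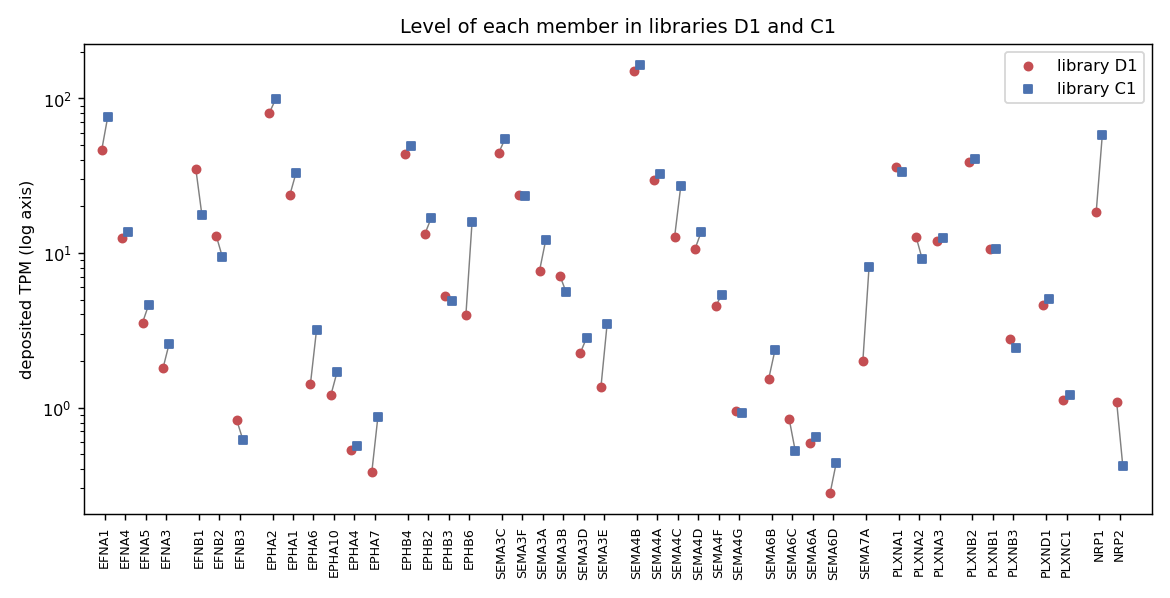
Deposited TPM of the 44 members past the filter, on a log axis, in library D1 (circles) and library C1 (squares), grouped by subfamily and ordered by level in D1. SEMA4B is the highest member at 150.52 TPM in D1 and 163.78 TPM in C1, and the long connecting lines belong to EPHB6, SEMA7A and NRP1.

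Of the semaphorins, 17 of 20 passed the filter. In library D1 none of them was 2-fold higher (2.40% of all genes) and 2 were at least 2-fold lower (4.54% of all genes). SEMA7A, the lipid-anchored semaphorin that binds integrin beta-1 and PLXNC1, had 61 reads in library D1 and 235 in library C1. Its log2 ratio of -1.85 (-2.29 to -1.44) was the lowest of all members past the filter. Its level was 2.01 TPM in D1 and 8.09 TPM in C1.

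SEMA3E, the class 3 semaphorin that binds PLXND1 without a neuropilin, had 87 reads in library D1 and 215 in library C1, a ratio of -1.21 (-1.59 to -0.85). SEMA3A, the ligand of NRP1 and A-type plexins that collapses growth cones, had 510 and 772 reads in D1 and C1, a ratio of -0.51 (-0.67 to -0.34). SEMA3C, the most abundant class 3 gene, had 1950 and 2293 reads, a ratio of -0.14 (-0.23 to -0.06), and SEMA3D had 140 and 170 (-0.19, interval -0.52 to 0.14). These 4 genes lie between chr7:80742538-80922389 (SEMA3C) and chr7:84995553-85250243 (SEMA3D), a grouping noted after their values were seen. All had ratios below 0 (median -0.35), beside 49.0% of all genes below 0. The 646 genes of that chromosome that passed the filter had a median of -0.02. The 10 measured genes around SEMA3E, which include SEMA3A, SEMA3C and SEMA3D, had a median of -0.28 (range -0.61 to 0.61).

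SEMA3B and SEMA3F, neighbouring class 3 genes of chromosome 3 that were described as tumour suppressors in lung cancer, lay on the other side of 0. SEMA3B had 200 reads in library D1 and 144 in library C1, a ratio of 0.56 (0.25 to 0.88). SEMA3F, the ligand of NRP2, had 678 and 602 reads in D1 and C1, a ratio of 0.26 (0.10 to 0.42). By TPM the SEMA3F level was nearly level between libraries, at 23.70 TPM in D1 and 23.36 TPM in C1. SEMA3F overlaps an antisense gene by up to 110 bases.

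Class 4 semaphorins, membrane ligands of plexins, held most of the semaphorin signal. SEMA4B alone had 4991 reads in library D1 and 5249 in library C1, a ratio of 0.02 (-0.04 to 0.07) whose sign depends on the scaling. It ranked 1100th of 16951 genes by TPM in library D1 and 1035th in library C1, and took 46.9% of semaphorin reads in D1 and 42.8% in C1. SEMA4C, a ligand of PLXNB2, had 343 reads in library D1 and 711 in library C1, a ratio of -0.96 (-1.15 to -0.77). It lay just inside the 2-fold line under TMM scaling and past it by TPM (12.75 TPM in D1 and 27.04 TPM in C1) and under plain library totals. By TPM, SEMA4B stood 11.8 times above SEMA4C in library D1 and 6.06 times in library C1.

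The remaining class 4 genes had small ratios. SEMA4D, the ligand of PLXNB1, had 460 and 577 reads in D1 and C1, a ratio of -0.24 (-0.42 to -0.06). SEMA4A, a ligand of B-type plexins and PLXND1, had 859 and 896 reads (0.03, interval -0.11 to 0.17), and the sign of its ratio turns under plain library totals and TPM. SEMA4F had 182 and 215 reads (-0.15, interval -0.44 to 0.14), and SEMA4G had 38 and 36 (0.17, interval -0.53 to 0.87). SEMA4G shares up to 382 bases of exon with MRPL43 on the opposite strand.

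Class 6 semaphorins, transmembrane ligands of A-type plexins, were rare. SEMA6A had 31 reads in library D1 and 34 in library C1 (-0.04), SEMA6B had 53 and 76 (-0.43), SEMA6C had 32 and 22 (0.62), and SEMA6D had 16 and 23 (-0.42). The intervals of all 4 span 0, and summed they came to 3.25 TPM in library D1 and 3.94 TPM in library C1. Neither class 5 gene passed the filter.

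**Figure D5:**
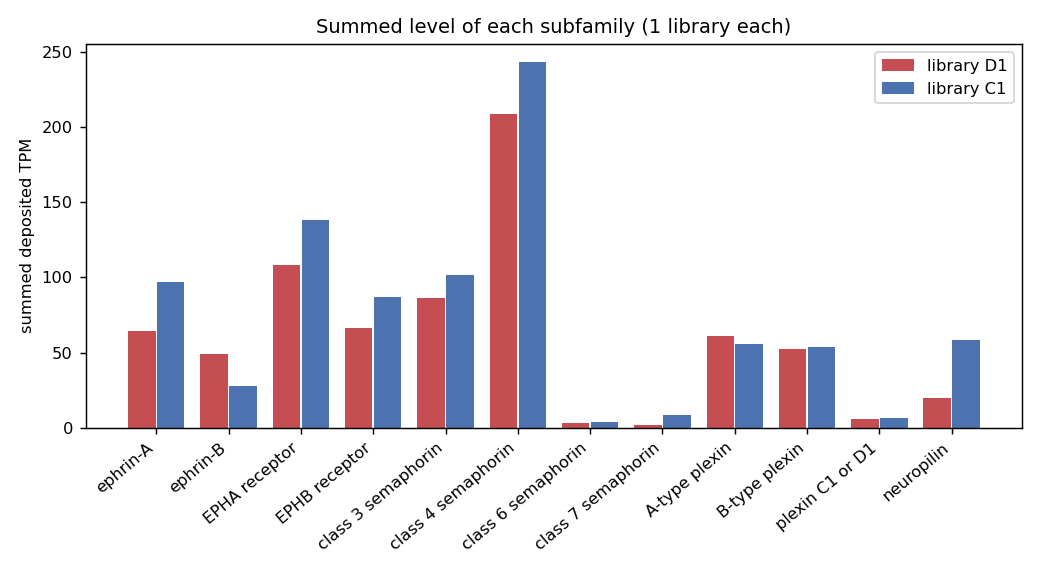
Summed deposited TPM of each subfamily in library D1 (left bar) and library C1 (right bar), 1 library each, with bars starting at 0. Class 4 semaphorins are the highest subfamily (208.90 TPM in D1 and 243.42 TPM in C1), ephrin-B is higher in D1, and neuropilins are lower in D1 (19.41 TPM in D1 and 58.65 TPM in C1).

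Ligands and receptors as whole classes differed little in size. The 24 ligands past the filter had a median log2 ratio of -0.15, with 1 at least 2-fold higher and 2 at least 2-fold lower. The 20 receptors had a median of -0.02, with 1 higher and 2 lower. Of all genes, 2.40% were at least 2-fold higher and 4.54% at least 2-fold lower. Summed ligand levels were 413.91 TPM in library D1 and 482.19 TPM in library C1, a log2 ratio of -0.22. Summed receptor levels were 313.10 TPM in D1 and 399.45 TPM in C1, a log2 ratio of -0.35. Summed reads with TMM scaling gave smaller differences, -0.05 for ligands and -0.11 for receptors. Known pairs were set side by side within each library, by TPM. The level of EFNA1 was 0.570 times that of EPHA2 in library D1 and 0.771 times in library C1. EFNB2 and its receptor EPHB4 stood at 12.93 and 43.69 TPM in library D1 and at 9.43 and 49.25 TPM in library C1. SEMA3E and its receptor PLXND1 stood at 1.36 and 4.61 TPM in library D1 and at 3.46 and 5.01 TPM in library C1. SEMA7A and PLXNC1 stood at 2.01 and 1.12 TPM in library D1 and at 8.09 and 1.21 TPM in library C1.

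Genes that act with or below plexins and semaphorins were mostly within 2-fold. Of 26 that passed the filter in a list of 29, 1 lay above 2-fold in library D1 and 1 below it. Of all genes, 2.40% lay above and 4.54% below. The median of the listed genes was -0.0014. MICAL2, a monooxygenase that oxidises actin and belongs to a family that acts downstream of plexins, had 1357 reads in library D1 and 612 in library C1, a ratio of 1.24 (1.10 to 1.38). RND1, a small GTPase that binds plexins, had 9 and 27 reads in D1 and C1 (-1.44, interval -2.77 to -0.36). DPYSL3, a collapsin response mediator protein, had 591 and 317 reads (0.99, interval 0.79 to 1.19), and the Src-family kinase FYN had 185 and 294 (-0.58, interval -0.85 to -0.31). The receptor kinases MET and ERBB2, which associate with B-type plexins and were named after their values were seen, had ratios of 0.13 and -0.24.

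For EPH and ephrin signalling, 29 of 32 listed genes passed the filter, with a median of 0.12. None was 2-fold higher (2.40% of all genes) and 1 was at least 2-fold lower (4.54% of all genes). KALRN, a guanine nucleotide exchange factor that acts downstream of EPHB receptors in neurons, had 13 reads in library D1 and 78 in library C1, a ratio of -2.45 (-3.47 to -1.64). ITSN1, the Cdc42 exchange factor intersectin that binds EPHB2, had 1992 and 1132 reads in D1 and C1 (0.91, interval 0.80 to 1.01). CRK, an adaptor protein, had 2226 and 1379 (0.78, interval 0.68 to 0.88), and TIAM1, a Rac exchange factor, had 147 and 236 (-0.59, interval -0.90 to -0.29). Proteases that process semaphorins or shed ephrins gave 0 of 7 at 2-fold (median -0.11). Among them the membrane metalloprotease MMP14 had a ratio of 0.55, the proprotein convertase PCSK6 0.41, the sheddase ADAM17 -0.25 and the rhomboid protease RHBDL2 0.12.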

How the data were processed

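Total RNA of 2 FaDu libraries was analysed from 1 table of 16951 genes. Per the file headers, the authors deposited unnormalized estimated counts per gene; RSEM, Bowtie2 and hg38 are named in the submitters' processing notes, without versions, and no annotation is given in the sources used here. Beside them, the authors deposited TPM and FPKM values; FPKM was not used for any result. Estimated counts were rounded to whole numbers and scaled by TMM in edgeR 4.0.16 (R 4.3.3). Log2 ratios are library D1 over C1 with 0.5 counts added, kept where a gene reached 1 CPM in either library. Each 95% interval converts the exact Clopper-Pearson bounds on D1's share of a gene's reads into a ratio. Reads are not independent molecules, so intervals cover counting error only.

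Every member past the filter was named, and from other fixed lists the genes past 2-fold and up to 4 with the largest ratios; MET, ERBB2, the chromosome 7 grouping and the ratios within a library were chosen after values were seen. The members and lists were chosen with earlier results of these data known. Promoter windows and coordinates come from RefSeq (GRCh38.p14), in which all 53 members matched by gene ID and 47 had a window. 1 listed marker is not reported here. The code was tested on simulated data. Alternatives were plain library totals, DESeq2 1.42.0 size factors, TPM ratios, other filters, 5 added counts and whole counts only.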

Additional observations from a re-analysis of the deposited data

How the results depend on the processing

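The signs of the members' median and of all 6 ratios past 2-fold were the same under every scaling tried, namely TMM, plain library totals, DESeq2 size factors and deposited TPM. Plain totals shifted the median of all genes by -0.12 and TPM by -0.15 against TMM, to -0.11 and -0.14, against 0.01 under TMM. The members' median was -0.21 under plain totals and -0.16 by TPM, against -0.09 under TMM. By TPM it therefore lay near that of all genes. Both under plain totals and by TPM, the ratios of EFNA4, EPHA4, SEMA4A, SEMA4B, PLXNA3 and PLXNB2 changed sign. Members at least 2-fold higher numbered 1 of 44 by deposited TPM (EFNB1 fell just short), beside 1.76% of all genes. They numbered 1 of 28 at 10 CPM or more (1.74% of all genes) and 5 of 53 without a filter (6.14%). Members at least 2-fold lower numbered 7 of 44 by deposited TPM (6.21% of all genes), where EPHA6, EPHA7 and SEMA4C were added. Without a filter, where genes of 0 to 14 reads enter, 7 of 53 were lower (9.87% of all genes). Plain totals gave 5 of 44 (5.62% of all genes). At 10 CPM or more, 4 of 28 were lower (2.19% of all genes). With whole counts only, 2 of 25 were higher (3.04% of all genes) and 3 of 25 were lower (5.67%). DESeq2 size factors kept 2 of 44 higher (2.36% of all genes) and 4 of 44 lower (4.63%). With 5 counts added the same 2 and 4 of 44 were found, beside 2.11% and 3.89% of all genes. At 1.5-fold the higher and lower counts were 5 and 6 of 44 under TMM, 2 and 9 under plain totals and 3 and 11 by TPM. They were 8 and 12 of 53 without a filter, 3 and 5 of 28 at 10 CPM, and 4 and 3 of 25 with whole counts only. With 5 counts added they were 4 and 6, and with DESeq2 size factors 5 and 6. The share of all genes at 1.5-fold is given under TMM only, so the other 1.5-fold counts are not a result about the members. Of all genes, 49.0% had ratios below 0 under TMM, 62.0% under plain totals and 65.0% by TPM.

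Summed reads with TMM scaling, added after the data were seen, gave log2 ratios of -0.43 for ephrin-A (-0.60 by summed TPM), -0.20 for EPHA receptors (-0.35), -0.23 for EPHB receptors (-0.39), -0.15 for class 3 (-0.23) and -0.071 for class 4 semaphorins (-0.22), 0.29 for A-type plexins (0.13), 0.12 for B-type plexins (-0.04) and -1.40 for neuropilins (-1.60). The cause was not tested beyond the shift between the scales. No paired analysis was possible because each condition has 1 library, and no library could be left out. Of 44 members past the filter, 19 had fractional estimated counts, and 12 had counting intervals wider than 1 log2 unit.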

Other observations

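Other guidance families had mostly ratios below 0. Of 20 listed netrin, slit, roundabout, UNC5, DCC, neogenin and RGM genes, 12 passed the filter, with 2 ratios above 0, 10 below 0 and a median of -0.50, beside 49.0% of all genes below 0 and a median of 0.01. Of the 12, 3 were at least 2-fold lower, beside 4.54% of all genes. NTN4, a netrin of basement membranes, had 167 reads in library D1 and 575 in library C1, a log2 ratio of -1.69 (-1.95 to -1.44). NTNG1 and NTNG2, lipid-anchored netrins, had 12 and 9 reads in library D1 against 72 and 25 in library C1 (-2.45 and -1.33). UNC5B, a netrin receptor, was the 1 gene of the 12 at least 2-fold higher, beside 2.40% of all genes. It had 303 reads in library D1 and 147 in library C1 (1.13, interval 0.84 to 1.43).

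Markers of other cell types were mostly rare. Of the fibroblast markers, COL1A1 had 82 reads in library D1 and 199 in library C1 and PDGFRA had 1 and 2; COL1A2, DCN and LUM were not analysed here. Of the leukocyte markers, PTPRC had 11 and 15, CD3E 3 and 7, CD14 120 and 215, and CD68 1011 and 1008. Of the neuronal and Schwann cell markers reported, MAP2 had 18 and 95, SYP 15 and 19, RBFOX3 7 and 9, and SOX10 1 in each library. Their part in any result was not tested.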
